A study of Rattus norvegicus with 6 samples.

Results

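Metalloproteinases cut proteins of the extracellular matrix and of the cell surface, and 52 genes of these enzymes and their inhibitors were read by the arrays in rat Leydig cells with and without Sertoli cell exosomes. They were chosen by symbol, as every gene with a probe whose accession carried a name of the Mmp, Adam, Adamts or Timp series. This gave 59 of 30367 probes and 52 of 15168 named genes, of which 21 were matrix metalloproteinases (MMP), 18 were ADAM genes, 9 were ADAMTS genes and 4 were tissue inhibitors of metalloproteinases (TIMP).

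The cells were primary Leydig cells of Sprague-Dawley rats, the testosterone-producing cells between the seminiferous tubules, grown in F12/DMEM medium with 10% fetal bovine serum at 34 °C and 5% CO2. In 3 samples exosomes were added for 24 h at 5 µg/ml, and these small membrane vesicles came from cultured primary Sertoli cells of the rat. Another 3 samples had none and are called untreated, and the labels give no vesicles of another cell type as a control. Samples are numbered 1 to 3 in both groups, but separate animals or cultures are not stated, so a p-value reflects no more than the spread of these samples, which may be technical.

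MMPs are zinc enzymes, made as inactive precursors, that are secreted or held at the membrane and cut collagens, gelatins, proteoglycans and laminins. ADAM proteases sit in the membrane and release the outer parts of growth factors, cytokines and receptors, while several ADAM proteins without protease activity serve in adhesion, among them many of male germ cells. ADAMTS enzymes are secreted and cut proteoglycans such as versican and aggrecan, and TIMP proteins block these enzymes with differing preference. In the testis they act on the matrix of the tubule wall and of the interstitium in which Leydig cells lie.

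A level is the log2 of the processed fluorescence minus the array's own 75th percentile, so 0 marks that percentile. A change is the difference of the group means of these levels, exosome minus untreated, ± its standard error, with n = 3 per group. Each adjusted p comes from limma, with the Benjamini-Hochberg method over 20433 tested probes, and "rose" or "fell" is used of genes with an adjusted p below 0.05. Levels of different genes are not compared, since each probe has its own brightness.

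Between 67.2% and 75.6% of gene spots per array gave a signal well above background, and saturation was not seen. The 3 untreated arrays carry 1 scan time in their headers and the exosome arrays others, so scan and group cannot be told apart. Leydig cell markers summed to 75.6 to 84.8 times the 75th percentile on untreated arrays and 74.4 to 88.1 times on exosome arrays, with Lhcgr and Nr5a1, 2 of 8 markers, above background on no array. Of the 5 tested 0 rose and 1 fell, Cyp11a1, the enzyme of the first step of steroid synthesis (−0.86 ± 0.12, adjusted p = 0.00983). Beside this and the marker counts that follow, 14.6% of all tested genes rose and 29.2% fell. Peritubular myoid cell markers summed to 46.9 to 50.0 times untreated and 30.3 to 37.3 times with exosomes, and of 8 tested 0 rose and 3 fell. Macrophage markers summed to 41.0 to 43.0 times and 35.8 to 42.4 times (0 of 11 rose, 4 fell). The sum of exosome 3 was lowered by Cd68 alone, at a level of −3.45 there. On exosome 1 and 2 Cd68 was at 3.15 and 3.35, and on the untreated arrays at 3.18, 3.47 and 3.40. Sertoli cell markers summed to 35.8 to 41.7 times and 28.9 to 33.4 times (1 of 6 rose, 2 fell), with Amh, Amhr2 and Gata1 above background on no array. The lower sum came from Clu, at mean levels of 4.23 untreated and 3.21 with exosomes. Tf (0.17), Inhbb (0.27) and Wt1 (0.49, which rose) changed the other way, and the median change of the 6 was 0.22. Stromal cell markers summed to 53.3 to 54.4 times and 55.8 to 58.8 times (2 of 6 rose, 0 fell). Endothelial cell markers summed to 0.878 to 0.995 times and 1.21 to 1.5 times (2 of 5 rose, 2 fell), with Tek and Tie1 above background on no array. Germ cell markers summed to 0.154 to 0.173 times and 0.138 to 0.144 times, with Ddx4, Odf1, Prm1, Sycp3 and Tnp2 above background on no array. The part of other cell types in the changes below was not tested, and in these bulk samples fewer cells of a type and less RNA per cell cannot be told apart.

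Of the 52 genes, 34 gave a signal well above background on 3 or more of the 6 arrays and were tested, and 29 of these did so on all 6. With exosomes 6 of the 34 rose and 15 fell, while of all 10979 tested genes 43.8% passed the test, 14.6% upwards and 29.2% downwards. The 6 genes that rose were Mmp28, Mmp16, Mmp14, Adamts9, Adamts15 and Adam1a. The 15 that fell were Mmp2, Mmp3, Mmp9, Mmp11, Mmp15, Mmp19, Mmp23, Adam7, Adam11, Adam15, Adam17, Adam34, Adamts12, Adamts19 and Timp3. Mmp28, Adamts19 and Adamts12 met the filter through 1 group only, so their calls rest on values of the other group that were not above background. The median change of the 34 was −0.53, beside −0.19 over all tested genes. In 25 of them the 3 arrays of 1 group lay above all 3 of the other, which held for 62.0% of all tested genes. A change of 2-fold or more was reached by 2 of the genes that rose and 5 that fell, beside 1.48% and 8.08% of all tested genes. The split depended on the scaling: with quantile normalization between arrays 6 rose and 8 fell, beside 20.2% and 16.1% of all tested genes, with medians of −0.19 and 0.01.

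**Figure D1:**
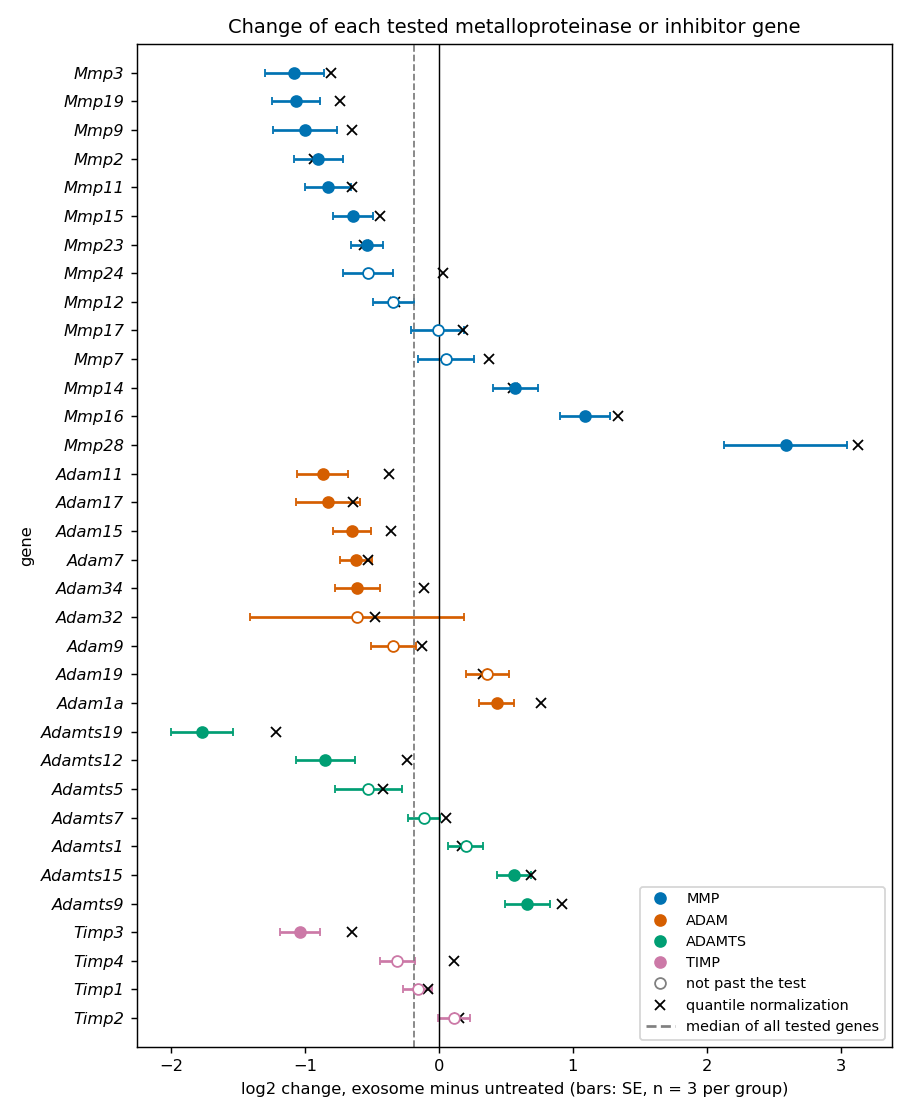
Change of each of the 34 tested metalloproteinase and inhibitor genes on the log2 scale, exosome minus untreated, grouped by family, with bars for the SE, open circles for genes not past the test, crosses for the change under quantile normalization and a dashed line at the median of all tested genes (−0.19). The points of Mmp28, Adamts19 and Adamts12 are fitted values against a group above background on no array, for which only bounds were measured, and Timp1 and Timp2 lie near 0.

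**Figure D2:**
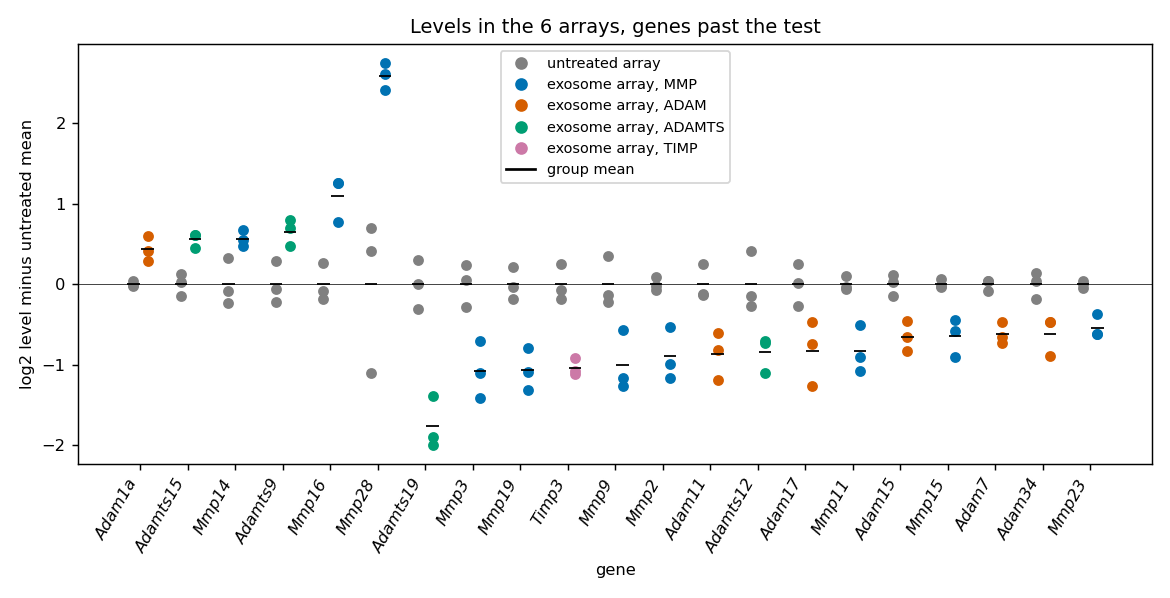
Log2 level on each of the 6 arrays for the 21 genes past the test, with the untreated mean of the gene set to 0. Grey points are untreated arrays, coloured points are exosome arrays and short lines are group means. The groups do not overlap in any gene shown, and the untreated points of Mmp28 and exosome points of Adamts19 and Adamts12 are not well above background.

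Of the gelatinases and collagenases, which cut denatured or fibrillar collagen, both tested genes fell. Mmp2, gelatinase A, had levels of 2.89, 2.84 and 3.00 untreated and 1.92, 2.38 and 1.74 with exosomes. Every exosome array lay below every untreated array, and exosome 2 lay nearest to them. The change was −0.90 ± 0.18 (adjusted p = 0.0140), and a second, dimmer Mmp2 probe gave −0.68 ± 0.16 (adjusted p = 0.0201). Mmp9, gelatinase B, an enzyme known from macrophages and neutrophils, had levels of −2.52, −3.09 and −3.00 untreated and −4.04, −3.44 and −4.14 with exosomes. Its change was −1.0 ± 0.24 (adjusted p = 0.0205), with the arrays of the groups apart, but under quantile normalization it was −0.65 and not past the test. The collagenase Mmp13 was not tested: it was well above background on 2 untreated arrays and on 0 exosome arrays, with intensities of 13.18, 17.72 and 15.50 untreated and 12.13, 12.20 and 7.277 with exosomes. Mmp1 and Mmp8, the other collagenases with a probe, were not tested either, at intensities from 6.771 to 17.53 and from 3.649 to 11.69.

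Of 3 tested stromelysins and matrilysins, 2 fell. Mmp3, stromelysin 1, which cuts many matrix proteins and activates other MMP precursors, had levels of −2.30, −1.96 and −1.78 untreated and −3.12, −2.72 and −3.43 with exosomes. It fell by 1.08 ± 0.22 (adjusted p = 0.0145), and the groups did not overlap. Mmp11, stromelysin 3, had levels of −1.13, −1.27 and −1.29 untreated and −2.13, −1.74 and −2.31 with exosomes, a change of −0.83 ± 0.17 (adjusted p = 0.0143). Mmp7, matrilysin, changed by 0.05 ± 0.21 (adjusted p = 0.860), with a sign that turned under normexp background correction (−0.05).

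The membrane-type MMPs, which act at the cell surface, moved in both directions: of 5 tested, 2 rose and 1 fell. Mmp14, the main activator of the Mmp2 precursor, had levels of 3.91, 3.49 and 3.34 untreated and 4.13, 4.06 and 4.25 with exosomes. The exosome arrays were all above the untreated ones, with untreated 1 the nearest, and the change was 0.57 ± 0.17 (adjusted p = 0.0391). With arrays of the same scan time as a random block Mmp14 missed the test (adjusted p = 0.0604), at the same change. Mmp16 had levels of −2.42, −2.76 and −2.86 untreated and −1.42, −1.91 and −1.42 with exosomes. Its rise of 1.09 ± 0.19 (adjusted p = 0.0115) was larger than the spread within either group. Mmp15 fell from −1.35, −1.45 and −1.44 to −2.32, −1.99 and −1.86, a change of −0.64 ± 0.15 (adjusted p = 0.0190). Its second, dimmer probe fell by 1.51 ± 0.37 (adjusted p = 0.0209). That probe was well above background on 3 untreated arrays but only 1 exosome array, so the size of its fall is uncertain. Under quantile normalization the Mmp15 change was −0.44 and missed the test. Mmp24 (−0.53 ± 0.19, adjusted p = 0.0633) and Mmp17 (−0.01 ± 0.20, adjusted p = 0.959) did not pass, and both had a value above 0 under quantile normalization (0.03 and 0.18). Mmp24 did pass as lower under normexp correction (−0.32, adjusted p = 0.0258) and without untreated 1 (−0.70, adjusted p = 0.0223).

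Of the 4 other tested MMPs, 1 rose and 2 fell. Mmp28, epilysin, an enzyme known from epithelia and the testis, was well above background on 0 of 3 untreated and 3 of 3 exosome arrays. Its intensities were 3.181, 8.163 and 9.619 untreated and 53.08, 44.33 and 41.59 with exosomes. The groups lay far apart, but the untreated level is only a limit, so the rise of the mean is given as at least 3.99-fold. On each untreated array it was counted from the dimmest signal that was well above background, or from the Mmp28 signal where that was brighter. This fold leaves out the spread between arrays. The adjusted p of 0.0114 belongs to the fitted log2 change (95% interval 1.5 to 3.68). The exosome signal was itself low, and after normexp correction with an offset the fitted change of Mmp28 was 0.35. Mmp19 had levels of −2.72, −2.87 and −2.48 untreated and −3.78, −3.49 and −4.01 with exosomes, and fell by 1.07 ± 0.18 (adjusted p = 0.0110). Mmp23, a membrane-anchored enzyme known from gonads, had levels of 3.70, 3.62 and 3.67 untreated and 3.04, 3.29 and 3.04 with exosomes. It fell by 0.54 ± 0.12 (adjusted p = 0.0176), and the untreated arrays lay close together above all exosome arrays. Centred on the median of tested probes its change was −0.31 and missed the test. Mmp12, macrophage elastase, did not pass (−0.34 ± 0.15, adjusted p = 0.100).

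With 1 array fewer in the fit, calls were lost over all probes as well, from 8669 of 20433 to 1881 without untreated 2. Mmp28, as a fitted value against untreated arrays not above background, and Mmp19 (−1.20 to −0.94) passed the test whichever array was left out. Mmp16 was lost without untreated 2 only (1.05). Mmp3 was lost without untreated 2 or untreated 3 (−1.05 to −0.96). Mmp2 (−0.93 to −0.85), Mmp11 (−0.86 to −0.80), Mmp15 (−0.66 to −0.51) and Mmp23 (−0.56 to −0.50) were lost without untreated 2, untreated 3 or exosome 1. Mmp9 was lost without those or exosome 3 (−1.12 to −0.87), and Mmp14 without any array but untreated 1 (0.44 to 0.61).

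Several MMP genes that are neighbours on rat chromosome 8 are textbook targets of the transcription factor AP-1, so their start regions are shown, with those of Mmp28 and Timp3, which rose and fell whichever array was left out. Windows from 250 bases before to 50 bases after the start were found in RefSeq (assembly GRCr8) for 34 of the 52 genes. Each stretch is printed 5′ to 3′ on the gene's strand. For the first 4 genes it runs from 130 to 11 bases before the start, and capitals mark the AP-1 letters TGANTCA and the TATA box letters TATAAA. They are Mmp3 at chr8:12925151-12925270, plus strand, Mmp12 at chr8:12866522-12866641, plus strand, Mmp7 at chr8:13132913-13133032, plus strand, and Mmp13 at chr8:12782699-12782818, plus strand.
Mmp3: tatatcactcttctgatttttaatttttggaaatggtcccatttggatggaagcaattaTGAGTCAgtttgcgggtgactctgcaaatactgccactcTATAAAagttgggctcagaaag
Mmp12: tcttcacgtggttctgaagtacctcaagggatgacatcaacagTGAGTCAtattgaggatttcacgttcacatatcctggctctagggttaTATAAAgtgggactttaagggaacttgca
Mmp7: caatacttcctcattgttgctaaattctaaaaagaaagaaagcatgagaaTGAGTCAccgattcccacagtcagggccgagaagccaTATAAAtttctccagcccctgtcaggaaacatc
Mmp13: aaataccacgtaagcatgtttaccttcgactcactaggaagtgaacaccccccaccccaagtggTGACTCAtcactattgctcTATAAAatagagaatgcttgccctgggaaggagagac
The AP-1 letters begin 71, 87, 80 and 66 bases before the start of Mmp3, Mmp12, Mmp7 and Mmp13, and the TATA box letters 32, 39, 43 and 47 bases before it. The stretches of Mmp28 at chr10:68762418-68762537, minus strand, and Timp3 at chr7:19459599-19459718, minus strand, run from 160 to 41 bases before the start, and capitals mark the GC box letters GGGCGG in either orientation.
Mmp28: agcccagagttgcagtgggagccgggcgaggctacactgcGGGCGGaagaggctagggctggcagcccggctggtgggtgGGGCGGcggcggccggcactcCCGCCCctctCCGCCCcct
Timp3: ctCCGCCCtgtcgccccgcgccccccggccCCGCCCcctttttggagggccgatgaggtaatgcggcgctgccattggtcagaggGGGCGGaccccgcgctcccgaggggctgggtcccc
Both strands were searched, and matches of different motifs that overlapped were each counted. AP-1 letters stood in 8 of the 34 windows (23.5%), against 7.33% of 33469 promoters of the same length. TATA box letters stood in 14 (41.2% against 14.2%), GC box letters in 13 (38.2% against 33.1%), and the ETS letters AGGAAG in 12 (35.3% against 34.5%). The 9 genes of the chromosome 8 cluster held 7 of the windows with AP-1 letters and 8 of those with TATA box letters, while the other 25 genes held 1 and 6. Of the 3 cluster genes tested, Mmp3 fell, and Mmp12 and Mmp7 did not pass the test. A match is a description of these letters, not a bound site.

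Among ADAM genes, 9 were tested, of which 1 rose and 5 fell, with a median change of −0.61. Under quantile normalization 1 rose and 1 fell, beside 20.2% and 16.1% of all tested genes, with a median of −0.36. Of the 4 somatic proteases tested, 2 fell. Adam17, the sheddase of tumour necrosis factor and of ligands of the EGF receptor, had levels of −1.65, −1.36 and −1.13 untreated and −2.13, −1.85 and −2.65 with exosomes. The groups did not overlap, although exosome 2 lay near untreated 1, and the change was −0.83 ± 0.24 (adjusted p = 0.0328). Adam15 had levels of −2.64, −2.38 and −2.47 untreated and −3.16, −2.96 and −3.33 with exosomes, a change of −0.65 ± 0.14 (adjusted p = 0.0167). Under quantile normalization neither passed, with −0.64 for Adam17 and −0.36 for Adam15. Adam9 did not pass (−0.34 ± 0.17, adjusted p = 0.137) except without exosome 2 (−0.49), and the probes of Adam19 disagreed: the brighter gave 0.36 ± 0.16 (adjusted p = 0.117) and the dimmer −0.54 ± 0.17 (adjusted p = 0.0456). The brighter passed under centring on the median (0.59) and normexp correction (0.39). Adam10 is not analysed here.

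Of the ADAM genes listed as without protease activity, apart from those of germ cells and the epididymis, Adam11 was the 1 tested. Its levels were −4.60, −4.59 and −4.21 untreated and −5.08, −5.28 and −5.66 with exosomes, a fall of 0.87 ± 0.19 (adjusted p = 0.0170) that was −0.37 and missed the test under quantile normalization. Of the ADAM genes known from germ cells and the epididymis, 4 were tested, of which 1 rose and 2 fell. Adam7, known from the epididymis, had levels of −0.46, −0.46 and −0.59 untreated and −1.16, −1.23 and −0.98 with exosomes, and fell by 0.62 ± 0.12 (adjusted p = 0.0131). Centred on the median of tested probes Adam7 missed the test at −0.39. Adam34, a testis gene, had levels of −4.85, −4.52 and −4.62 untreated and −5.14, −5.56 and −5.14 with exosomes, a change of −0.61 ± 0.17 (adjusted p = 0.0285) that was −0.11 under quantile normalization and not past the test. Adam1a, known from germ cells, had levels of −3.42, −3.36 and −3.40 untreated and −2.98, −3.11 and −2.79 with exosomes. It rose by 0.43 ± 0.13 (adjusted p = 0.0340), with the groups apart, and under normexp correction missed the test at 0.19. Adam32 varied more between untreated arrays, at −3.05, −0.63 and 0.12, than between groups, with −2.24, −2.05 and −1.11 on the exosome arrays, and its change of −0.61 ± 0.80 did not pass (adjusted p = 0.558). Without untreated 3 that change was 0.04, and without untreated 1 it was −1.55 and passed (adjusted p = 0.0321).

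No ADAM call held whichever array was left out. Adam7 was lost without untreated 2 or exosome 1 (−0.61 to −0.60) and Adam11 without untreated 2 or untreated 3 (−0.94 to −0.74). Adam15 (−0.65 to −0.59) and Adam34 (−0.68 to −0.54) were lost without untreated 2, untreated 3 or exosome 1. Adam17 was lost without those or exosome 3 (−0.87 to −0.61), and Adam1a without any array but exosome 2 (0.35 to 0.45).

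Of 7 tested ADAMTS genes 2 rose and 2 fell, with a median change of −0.11, which was 0.05 under quantile normalization. Both genes that rose belong to the proteoglycanases, of which 4 were tested and 0 fell. Adamts9 had levels of −2.37, −2.71 and −2.88 untreated and −1.96, −2.18 and −1.86 with exosomes, a rise of 0.66 ± 0.17 (adjusted p = 0.0254). Adamts15 had levels of −1.22, −1.32 and −1.50 untreated and −0.90, −0.73 and −0.73 with exosomes, a rise of 0.56 ± 0.13 (adjusted p = 0.0181). With the tested probe of each gene, every exosome array was above every untreated array. A second, dimmer Adamts15 probe was not tested and pointed the other way, to lower signal with exosomes. It was well above background on 2 untreated and 0 exosome arrays, and its levels overlapped between groups. Adamts1, a versican-cutting enzyme known from ovulation, had levels of 2.04, 1.83 and 1.70 untreated and 2.12, 2.09 and 1.97 with exosomes. These overlapped, and its change of 0.20 ± 0.13 did not pass (adjusted p = 0.246). Adamts5, an aggrecanase, had levels of −0.41, −0.44 and −0.63 untreated and −0.92, −0.59 and −1.56 with exosomes, which overlapped as well (−0.53 ± 0.25, adjusted p = 0.124). Without exosome 2 the Adamts5 change was −0.75 and passed (adjusted p = 0.0424). Adamts4, the other classical aggrecanase, was not tested. It was well above background on 0 untreated and 2 exosome arrays, at intensities of 13.17, 11.34 and 9.574 untreated and 15.88, 3.762 and 23.15 with exosomes.

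Outside the proteoglycanases, Adamts19, known from the gonads, was well above background on 3 of 3 untreated and 0 of 3 exosome arrays. Its intensities were 26.42, 29.18 and 34.77 untreated and 9.985, 9.923 and 12.26 with exosomes. Its mean fell by at least 2.74-fold, and its fitted change after normexp correction was −0.56. On each exosome array the fold was counted from the dimmest signal well above background, or from the gene's own signal where that was brighter. This fold leaves out the spread between arrays. The adjusted p of 0.00983 belongs to the fitted log2 change (95% interval −2.31 to −1.23). Adamts12 likewise was above background on the untreated arrays only, at intensities of 15.98, 15.52 and 22.15 against 13.57, 14.13 and 8.787. Its mean fell by at least 1.58-fold, counted in the same way, and its fitted log2 change had a 95% interval of −1.37 to −0.33 (adjusted p = 0.0243). It missed the test under quantile normalization (−0.24) and normexp correction (−0.28). Adamts7 did not pass (−0.11 ± 0.12, adjusted p = 0.459) and was 0.05 under quantile normalization. Adamts19, as a fitted value against exosome arrays not above background, passed whichever array was left out. Adamts15 was lost without untreated 2 or untreated 3 (0.48 to 0.58), and Adamts9 (0.54 to 0.64) and Adamts12 (fitted values of −0.92 to −0.64) without those, exosome 1 or exosome 3.

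Of the 4 TIMP genes 1 fell and 0 rose. Timp3, the matrix-bound inhibitor that also blocks Adam17 and the aggrecanases, had levels of −3.54, −3.43 and −3.10 untreated and −4.47, −4.44 and −4.28 with exosomes. The groups lay well apart, the change was −1.04 ± 0.15 (adjusted p = 0.0101), and it passed the test whichever array was left out (−1.13 to −0.91) and in all 5 scalings and backgrounds tried, at −0.65 under quantile normalization and −0.61 under normexp correction. Timp1 had levels of 5.68, 5.68 and 5.72 untreated and 5.56, 5.45 and 5.61 with exosomes. All 3 exosome arrays were lower, but the change of −0.16 ± 0.11 did not pass (adjusted p = 0.273, 95% interval −0.42 to 0.10) and turned to 0.07 when arrays were centred on the median. Timp2, which with Mmp14 takes part in activating the Mmp2 precursor, had levels of 6.09, 6.09 and 6.03 untreated and 6.22, 6.04 and 6.29 with exosomes. These overlapped, and the change was 0.11 ± 0.12 (adjusted p = 0.456, 95% interval −0.17 to 0.40). Timp4 had levels of −3.68, −3.98 and −3.81 untreated and −4.13, −4.23 and −4.04 with exosomes. The exosome arrays were all lower, but the brighter probe did not pass (−0.31 ± 0.13, adjusted p = 0.0926). Its second, dimmer probe did pass, at −0.89 ± 0.14 (adjusted p = 0.0105), and the brighter probe turned to 0.11 under quantile normalization.

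The difference between an inhibitor and its protease within an array is not changed by a constant taken from all levels of the array, and 5 such pairs were compared, chosen after the values were seen. The level of Timp2 minus that of Mmp2 was 3.20, 3.25 and 3.03 untreated and 4.30, 3.67 and 4.55 with exosomes, higher by 1.01 with no overlap. Timp1 minus Mmp9 was higher by 0.85 and Timp2 minus Mmp14 lower by a difference of −0.45, both without overlap. For these 3 pairs the exact two-sided permutation test gave p = 0.1, the smallest that 3 against 3 arrays allow (0.17 adjusted over the 5 pairs). Timp3 minus Adam17 (−0.21, exact permutation p = 0.5, adjusted 0.5) and Timp3 minus Adamts5 (−0.51, exact permutation p = 0.3, adjusted 0.38) overlapped between groups. Quantile normalization and normexp correction, which are not constants, moved Timp1 minus Mmp9 to 0.57 and 0.53, Timp3 minus Adamts5 to −0.23 and −0.13, and Timp3 minus Adam17 to −0.02 and 0.05. Timp2 minus Mmp2 (1.08 under both) and Timp2 minus Mmp14 (−0.39 and −0.42) moved less.

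**Figure D3:**
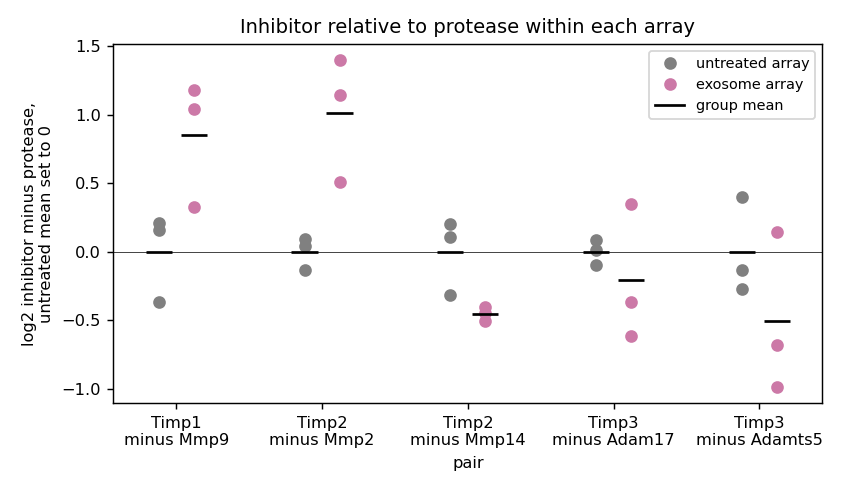
Log2 level of an inhibitor minus that of a protease on each array, with the untreated mean set to 0, for 5 pairs. Grey points are untreated arrays, coloured points are exosome arrays and lines are group means, which differ by 1.01 for Timp2 minus Mmp2 and by −0.45 for Timp2 minus Mmp14.

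Changes over all genes depended on the level. The median change of all tested genes was −0.67 at mean levels from −9 to −5, −0.52 from −5 to −4, −0.37 from −4 to −2, −0.14 from −2 to 0, 0.12 from 0 to 2 and 0.15 from 2 to 9. Set against the median at their own level, Mmp16 stood 1.46 above, Adamts9 1.03 above and Mmp14 0.42 above. Mmp2 (−1.05), Mmp23 (−0.69), Mmp3 (−0.71), Mmp19 (−0.70) and Timp3 (−0.67) stood below it. Adam34 (−0.09) lay close to it. The number of spots went with the direction too: 7 tested genes of these families were read by probes spotted 10 times, of which 4 rose and 1 fell (median 0.43), and 27 by single spots, of which 2 rose and 14 fell (median −0.61). Over all genes 24.1% of those with 10 spots rose and 19.1% fell, against 13.6% and 30.2% of those with 1 spot. The part of level and spot number in these changes was not tested.

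**Figure D4:**
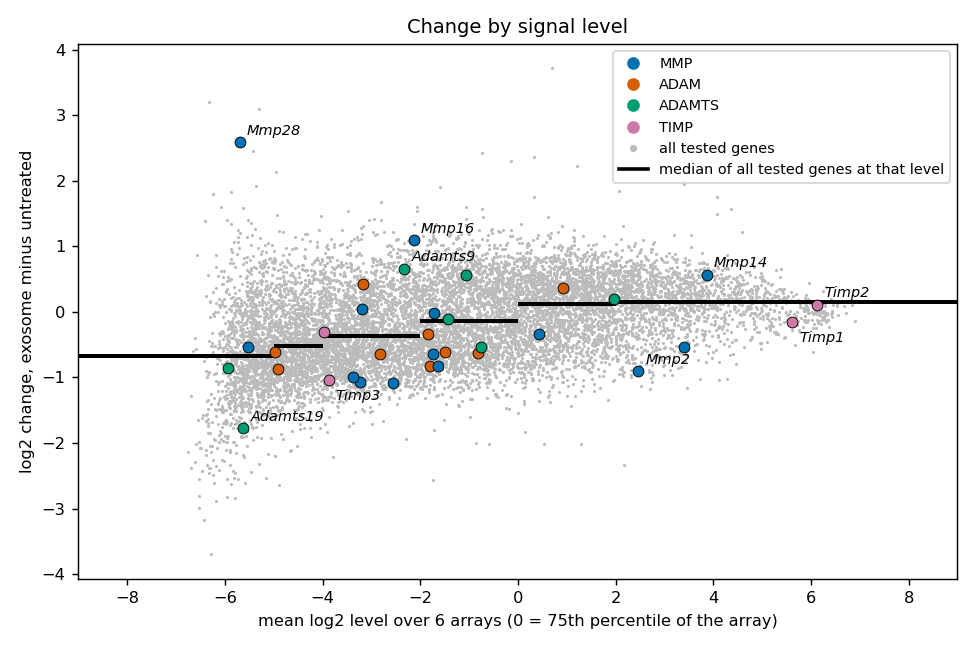
Change of each tested gene, exosome minus untreated, against its mean log2 level over 6 arrays, where 0 is the array's 75th percentile. Grey points are all tested genes, coloured points the metalloproteinases and inhibitors by family, and black lines the median of all genes at that level, which runs from −0.67 at the lowest levels to 0.15 at the highest.

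Of the 18 genes that were not tested, 13 were well above background on no array. ADAM genes made up 9 of the 18, mostly of the kind known from germ cells, such as Adam2 (intensities 2.87 to 5.156), Adam3a (2.674 to 5.371) and Adam5 (4.132 to 9.731). Mmp20, the enamel protease, had intensities of 3.022 to 4.386 and Mmp21 of 2.721 to 3.725. At these signals only a bound on the level was measured.

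Genes that work with these enzymes were read from lists, whose counts stand beside 14.6% of all tested genes that rose and 29.2% that fell. The counts of these lists under quantile normalization stand beside 20.2% that rose and 16.1% that fell. Of 14 tested other inhibitors and regulators 2 rose and 6 fell, with a median of 0.16. The 4 of smallest p all fell: Bsg, the MMP inducer basigin (−0.92 ± 0.16, adjusted p = 0.0112), and the tetraspanins Tspan15 (−0.80 ± 0.15), Tspan14 (−1.07 ± 0.23) and Tspan33 (−0.95 ± 0.21), partners that guide Adam10. Bsg passed whichever array was left out, Tspan15 was lost without untreated 3 (−0.72), and Tspan14 and Tspan33 were lost without untreated 2 (−1.08 and −0.94), untreated 3 or exosome 1. Under quantile normalization the list had 3 rises and 4 falls, and Tspan33 missed the test at −0.41. Of 8 genes of plasminogen activation, a cascade that activates MMP precursors, 0 rose and 3 (37.5%) fell, with a median of −0.44. Among them were the activator Plau (−1.01 ± 0.23) and its receptor Plaur (−0.84 ± 0.20). Both were lost without untreated 2 (−1.07 and −0.83) or untreated 3, Plau also without exosome 1, and under quantile normalization Plau (−0.68) and Plaur (−0.39) missed the test and the list had 1 rise and 1 fall. Neither of 2 tested ADAMTS-like genes passed (median −0.33).

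Among substrates, 10 collagens were tested, of which 2 rose and 3 fell (median −0.07). Col14a1 rose by 1.06 ± 0.18 (adjusted p = 0.0110), whichever array was left out. Col3a1 (−0.86 ± 0.18), Col8a1 (−0.88 ± 0.19) and Col5a1 (−0.85 ± 0.23) fell and were lost without untreated 2 (−0.87, −0.94 and −0.84) or untreated 3, and Col5a1 also without untreated 1, exosome 1 or exosome 3. Under quantile normalization 1 collagen rose and 3 fell. Of 18 matrix proteoglycans and glycoproteins 0 rose and 6 fell (33.3%, near the 29.2% of all tested genes), with a median of −0.35. Those that fell included vitronectin Vtn (−0.86 ± 0.17), thrombospondin Thbs1 (−1.28 ± 0.26), fibrillin Fbn1 (−0.95 ± 0.22) and nidogen Nid2 (−1.18 ± 0.27). These 4 were lost without untreated 2 (−0.92, −1.05, −0.90 and −1.31), all but Thbs1 also without untreated 3, and Fbn1 and Nid2 without exosome 1. The list had 3 falls under quantile normalization, where Vtn (−0.41) and Thbs1 (−0.83) missed the test.

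Of 24 membrane proteins that ADAM proteases shed, 5 rose and 4 fell (median 0.24), which became 9 and 2 under quantile normalization. Vcam1, an adhesion receptor, rose by 0.85 ± 0.13 (adjusted p = 0.0102), and Hbegf, an EGF receptor ligand released by Adam17, fell by 1.17 ± 0.21 (adjusted p = 0.0114), both whichever array was left out. The receptor kinase Axl fell by 0.83 ± 0.16 and the ligand Tgfa rose by 0.50 ± 0.13. Both were lost without untreated 2 (−0.81 and 0.51) or untreated 3, and Tgfa also without exosome 1 or exosome 3. Of 17 other metallopeptidases 1 rose and 4 fell (5.88% and 23.5%, beside 14.6% and 29.2% of all tested genes), with a median of −0.17. Under quantile normalization these were 2 and 4. The angiotensin-converting enzyme Ace fell by 0.82 ± 0.11 (adjusted p = 0.00983) whichever array was left out. The carboxypeptidases Cpm (−0.82 ± 0.17) and Cpe (−0.52 ± 0.11) and the aminopeptidase Anpep (−0.88 ± 0.19) fell but were lost without untreated 2 (−0.84, −0.53 and −0.96), untreated 3 or exosome 1.

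Counted over settings, 11 of the 21 genes past the test passed it in all 5 scalings and backgrounds: Mmp28, Mmp16, Mmp14, Adamts9 and Adamts15 among those that rose, and Mmp2, Mmp3, Mmp11, Mmp19, Adamts19 and Timp3 among those that fell. Over all tested genes 12.8% rose and 12.2% fell in all 5, which is 1408 of the 1598 that rose and 1335 of the 3208 that fell. Of the 5, quantile normalization and the authors' table gave nearly the same changes, so they do not count as separate support. Whichever array was left out, 4 of the 21 passed: Mmp28 rose, and Mmp19, Adamts19 and Timp3 fell. Over all tested genes 120 of the 1598 that rose and 753 of the 3208 that fell did so, which is 1.09% and 6.86% of those tested. The calls of Mmp28 and Adamts19 rest on fitted values against a group above background on no array, so their stability adds little.

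**Figure D5:**
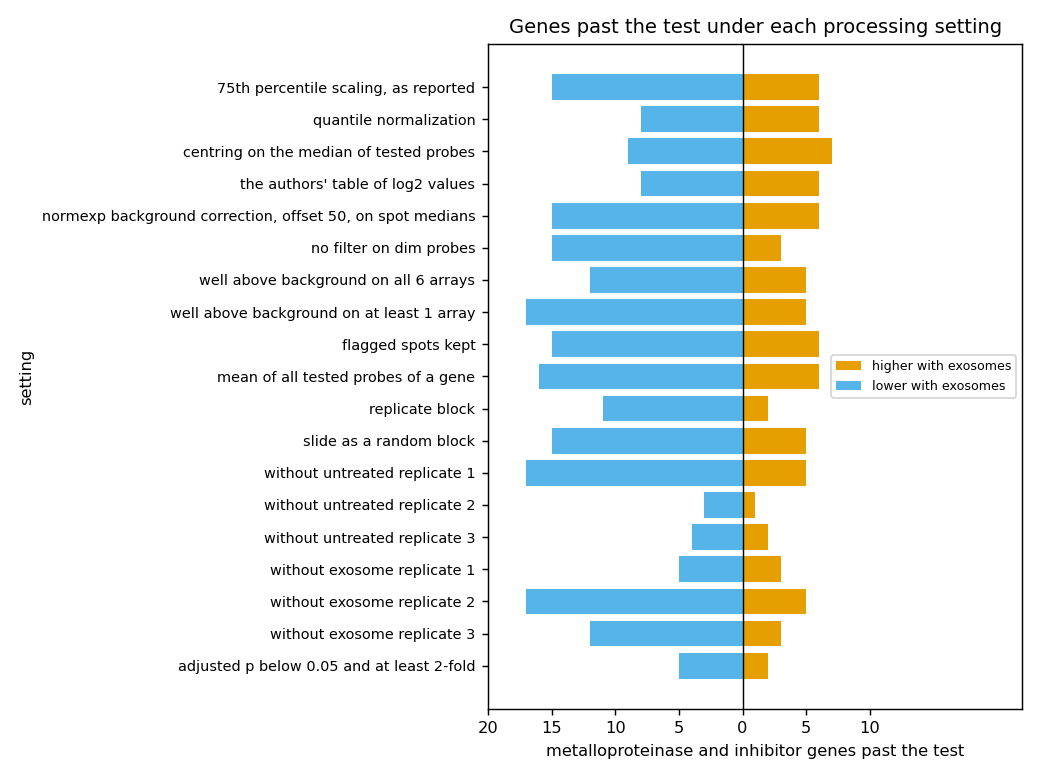
Number of metalloproteinase and inhibitor genes past the test under each processing setting, with genes higher with exosomes to the right of 0 and genes lower to the left. Genes lower number 15 with the 75th percentile, 8 with quantile normalization and 3 without untreated replicate 2. Over all 10979 tested genes those numbers are 3208, 1766 and 820. The setting labelled slide groups arrays by scan time.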

How the data were processed

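RNA of 6 samples was labelled with Cy3 and read on 1-colour Agilent arrays. Per the file headers, the deposited intensities came from Agilent Feature Extraction 11.0.1.1 and are background-corrected within an array and not scaled between arrays. The authors deposited a table of log2 values, which followed the arrays at r of 0.996 or above and served as an alternative. Its 6 columns share a median of 5.68 and a maximum of 16.99, as columns do after quantile normalization. Its counts for these genes, 6 that rose and 8 that fell, equal those under quantile normalization here. The sources used here do not state how it was scaled.

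From each array's log2 intensities its 75th percentile was subtracted, after dropping spots with an outlier flag (388 to 572 per array) and averaging those of a probe. Probes well above background on at least 3 arrays were tested (20433 probes, 10979 genes), and the brightest tested probe stood for its gene. Accessions were named through RefSeq genes of GRCr8 (18005 probes). limma 3.58.1 in R 4.3.3 fitted the 2 groups without a block, with Benjamini-Hochberg adjustment over all tested probes. Python 3.11.15, pandas 2.3.3, numpy 2.4.6, scipy 1.17.1 and matplotlib 3.10.9 did the rest. The number of arrays limits the precision. On simulated data of 20416 probes, 6% of 50 probes changed 1.5-fold were recovered. The share was 42% for 2-fold, 86% for 4-fold and 84% for 8-fold changes. Of 116 calls 7 were false. In the real fit 8669 of 20433 probes passed, and the adjustment is less strict when more probes pass. These shares therefore do not give the recovery in the real comparison, where Adam1a passed with a 1.35-fold change.

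Members and lists were chosen with earlier results of these data known. The text names every member past the test, the TIMP genes and a few classical proteases whatever they showed, and up to 4 genes of smallest p per list, of which 1 is not reported here and stays in the counts. Other members not past the test, and the untested ones, were named after their values were seen. Alternatives changed the scaling, background correction (normexp, offset 50, on spot medians, since the spot means planned for it were not in the columns used), filter, flagged spots, probe choice, blocks, minimum fold and arrays used.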

Additional observations from a re-analysis of the deposited data

How the results depend on the processing

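No recomputed change of a named gene that passed the test turned its sign. Of 573 recomputed changes over all tested members 475 kept their side of the threshold, 90 fell short of it and 8 newly passed. The 475 include changes that turned sign in genes not past the test, such as Mmp17 and Mmp7. The 6 genes that rose became 3 with no filter on dim probes, where Mmp14, Adamts9 and Adam1a missed the test, and 2 at a minimum of 2-fold. Over all tested genes the 1598 that rose became 849 and 163. The 15 that fell became 8 under quantile normalization, 9 when centred on the median, 8 in the authors' table of log2 values and 5 at 2-fold. Over all tested genes the 3208 that fell became 1766, 1856, 1782 and 887 in these settings. Leaving out 1 array at a time gave 1 to 5 rises and 3 to 17 falls, and with untreated replicate 2 left out 4 of the 21 calls were kept. In that setting 134 of all 10979 tested genes rose and 820 fell. With the replicate block 2 rose and 11 fell; same-numbered arrays did not deviate together (r of −0.087, −0.028 and −0.024), so the numbers were not taken to pair the samples. With arrays of the same scan time as a random block 5 rose and 15 fell, and the remaining settings moved either count by no more than 1.5 times. The cause of these shifts was not tested. Signal over background limits Mmp28, Adamts19, Adamts12 and the untested genes to bounds; with these at their bound the median over the 34 tested genes stays at −0.53.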
